A study of Rattus norvegicus with 12 samples.

Results

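The 8 genes described here move lactate across cell membranes or convert it to and from pyruvate. They are the sodium-coupled carriers Slc5a12 and Slc5a8, the proton-coupled carriers Slc16a1, Slc16a3 and Slc16a7, the carrier chaperone Bsg, and the lactate dehydrogenase subunits Ldha and Ldhb. Members were chosen by name, with earlier results of these data known, so shares of members set beside shares of all features are descriptions. Every probe whose RefSeq transcript belongs to 1 of these symbols was taken. This gave 11 of the 61657 non-control probes and 8 of the 29603 features tested. All 11 probes were well above background on all 12 arrays, so no member entered through a single group. Slc5a12, Ldha and Bsg had 2 probes each, and the test used the one with the higher mean.

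The samples were renal cortex from 12 male rats of the Sprague-Dawley strain (Crl:CD(SD)), bought at 5 weeks of age, with 1 one-colour array per rat and 3 rats in each of 4 groups. The groups were tert-butyl alcohol (TBA, a solvent and fuel-additive metabolite) at 1000 mg/kg/day for 4 weeks under CO2-O2 (4:1) anesthesia, water (vehicle) for 4 weeks under CO2-O2, TBA at that dose under isoflurane, and vehicle under isoflurane. All rats were bled to death under the anesthetic 24 h after the last dose. The labels call the replicates biological, and they give neither the route of dosing nor a time under anesthesia.

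Lactate filtered at the glomerulus is reclaimed by the proximal tubule. Sodium-coupled carriers of the brush border bring it into the cell, proton-coupled carriers pass it across the other membrane in either direction, and lactate dehydrogenase interconverts it with pyruvate, which the tubule oxidises or turns into glucose. The proton-coupled carriers Slc16a1 and Slc16a3 need basigin to reach the cell surface. Lactate dehydrogenase is a tetramer of Ldha and Ldhb subunits, with Ldhb prevailing in oxidative tissues such as renal cortex.

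Values are log2 of a probe's processed signal relative to the 75th percentile of its array, so 0 is the level of that percentile, and no probe's level is set against another's. Per array, 61.6% to 71.0% of probes stood well above background, and correlations between arrays within a group were 0.989 to 0.994. The arrays lay on 3 slides: slide 1 held the vehicle CO2-O2 arrays and TBA CO2-O2 array 3, slide 2 held TBA CO2-O2 arrays 1 and 2 and the vehicle isoflurane arrays, and slide 3 held the TBA isoflurane arrays. Under isoflurane, treatment and slide therefore cannot be told apart. In TBA rats the isoflurane and CO2-O2 arrays share no slide, so anesthetic and slide cannot be told apart either. The averaged TBA and anesthetic differences take in these comparisons. Slide 1 was scanned on day 1, and slides 2 and 3 on day 2. Under CO2-O2, TBA arrays 1 and 2 thus differed from all vehicle arrays in slide and scan day, and TBA array 3 did not. All 11 listed markers of proximal tubule segments S1 and S2 were measured, as were all 4 of podocytes and all 4 of endothelium, while the 4 measured skeletal muscle markers summed to 0.457 to 0.676 times the 75th percentile over all arrays. The 5 red blood cell markers summed to 316 to 599 times that percentile. In these bulk samples fewer cells of a type and less RNA per cell cannot be told apart.

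Averaged over the anesthetics, Slc5a12, Slc16a1 and Bsg rose in TBA rats relative to vehicle rats, and no member fell (0.49% of all features did). These are 3 of 8 members called higher by limma at an adjusted p under 0.05, where 1.4% of all 29603 features were called higher. 6 members lay above 0 and 2 below, with a member median log2 difference of 0.26 against 0.01 for all features, of which 53.9% lay above 0. Under CO2-O2 alone 1 of 8 was called higher, Slc5a12, against 0.128% of all features. Under isoflurane alone 0 of 8 were called by limma, against 0.395% of all features, and 5 had an unadjusted p under 0.05, against 17.8%.

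**Figure D1:**
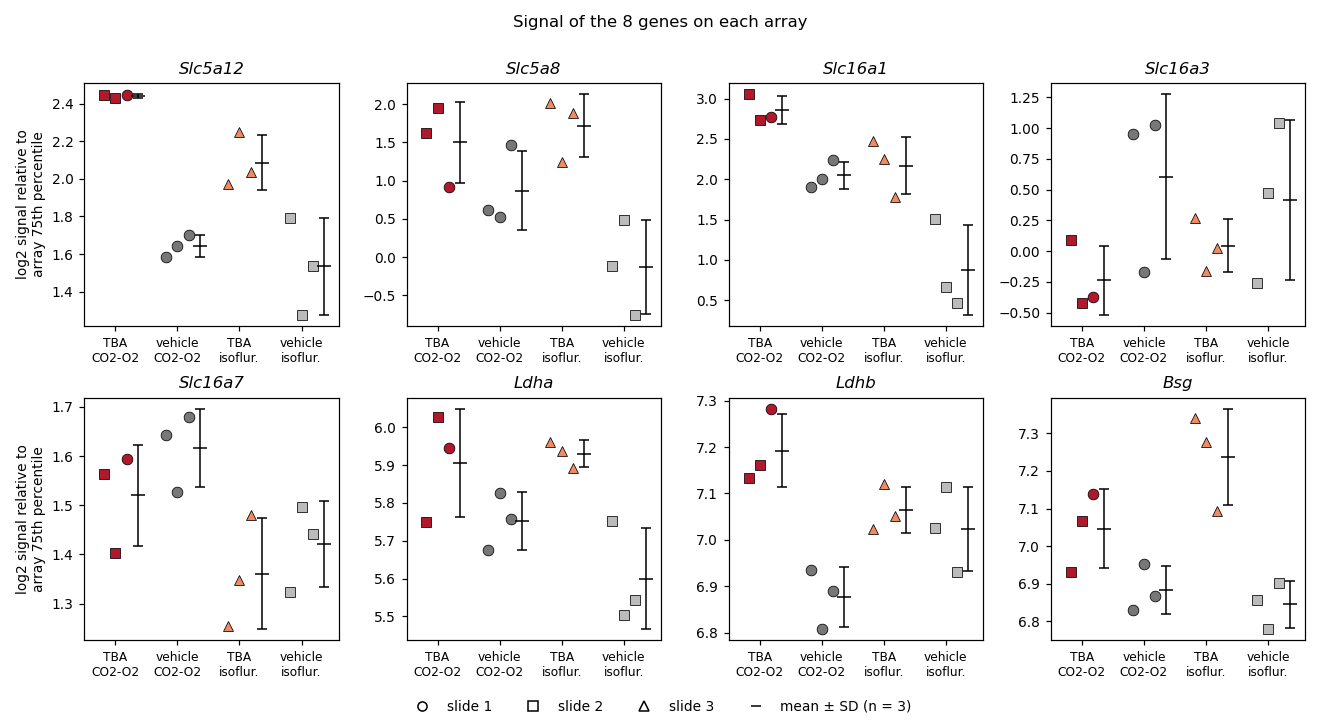
Signal of the 8 genes on each array, as log2 relative to the array's 75th percentile, with 1 point per rat, shapes for slides, and bars for the mean ± SD of 3 rats. All TBA arrays of Slc5a12 (1.97 and above) sit above all vehicle arrays (1.79 and below), while Slc16a3 and Slc16a7 overlap between treatments.

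The upstream sequences of the 3 genes that rose are shown with that of Ldha, which was not called. They were picked because all but Slc5a12 hold a short motif in common. Each runs from 250 bases before to 50 after the annotated start site on the gene's own strand, from RefSeq on GRCr8. All 8 members matched an entry. Capitals mark CACGTG, an E-box core that reads the same on both strands and is bound by factors of the MYC, USF and CLOCK families.
Slc5a12, chr3:117633637-117633936, plus strand: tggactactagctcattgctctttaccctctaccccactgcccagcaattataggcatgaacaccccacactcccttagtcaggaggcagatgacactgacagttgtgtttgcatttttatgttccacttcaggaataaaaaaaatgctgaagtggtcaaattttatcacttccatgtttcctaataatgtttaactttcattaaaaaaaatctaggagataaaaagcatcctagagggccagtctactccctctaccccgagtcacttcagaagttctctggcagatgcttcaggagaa
Slc16a1, chr2:194812410-194812709, plus strand: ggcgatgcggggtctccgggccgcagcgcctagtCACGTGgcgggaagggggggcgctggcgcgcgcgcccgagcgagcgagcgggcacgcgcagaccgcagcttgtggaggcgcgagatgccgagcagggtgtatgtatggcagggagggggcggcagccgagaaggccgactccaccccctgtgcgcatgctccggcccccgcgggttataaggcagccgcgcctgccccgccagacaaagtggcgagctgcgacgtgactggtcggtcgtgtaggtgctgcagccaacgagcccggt
Bsg, chr7:10650956-10651255, minus strand: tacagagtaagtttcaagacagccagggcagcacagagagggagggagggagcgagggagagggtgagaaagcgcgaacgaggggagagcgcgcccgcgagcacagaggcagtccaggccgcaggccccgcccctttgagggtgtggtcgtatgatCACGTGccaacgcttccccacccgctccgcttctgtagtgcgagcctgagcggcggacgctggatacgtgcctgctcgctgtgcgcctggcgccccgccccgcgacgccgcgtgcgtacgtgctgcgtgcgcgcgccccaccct
Ldha, chr1:106507842-106508141, plus strand: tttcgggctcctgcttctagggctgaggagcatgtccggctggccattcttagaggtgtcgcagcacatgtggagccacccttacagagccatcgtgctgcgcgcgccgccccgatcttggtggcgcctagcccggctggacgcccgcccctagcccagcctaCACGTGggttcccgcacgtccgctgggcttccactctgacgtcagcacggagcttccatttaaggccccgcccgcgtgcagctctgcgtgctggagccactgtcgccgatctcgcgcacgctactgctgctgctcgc

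CACGTG was found in the windows of Slc16a1, Bsg and Ldha, its first base lying 216, 94 and 87 bases before the start site. These are 3 of 8 members, where 6.42% of 33469 promoters of the same length hold the motif. The Slc5a12 window, which is 41.7% G and C against 72.7% for Slc16a1, holds none. The windows of Slc5a8, Slc16a3, Slc16a7 and Ldhb, which are not shown, hold none either. The shorter ACGTG, the core of the hypoxia-response element, was searched on both strands and lies inside CACGTG. Outside CACGTG it was found in 5 of 8 members and in 13.9% of all promoters. The motifs were chosen with the results known, and a match is a description of the letters only.

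Slc5a12 encodes a low-affinity sodium-lactate cotransporter, which in mouse kidney lies in the early proximal tubule. Its log2 relative signal was 2.45, 2.43 and 2.45 in TBA rats under CO2-O2, against 1.58, 1.64 and 1.70 in vehicle rats under CO2-O2. Under isoflurane it was 1.97, 2.25 and 2.04 in TBA rats, against 1.79, 1.28 and 1.54 in vehicle rats. The groups did not overlap under either anesthetic, and the 3 TBA CO2-O2 arrays were nearly identical on this probe.

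The difference for Slc5a12 was 0.80 ± 0.12 under CO2-O2 (SE, n = 3 rats per group, adjusted p = 0.0421), a 1.74-fold higher signal. Under isoflurane it was 0.55 ± 0.12 (adjusted p = 0.0751), and averaged over both 0.68 ± 0.08 (adjusted p = 0.00986), or 1.60-fold. The order of group means was TBA CO2-O2 (2.44 ± 0.0092, SD), TBA isoflurane (2.09 ± 0.15), vehicle CO2-O2 (1.64 ± 0.06) and vehicle isoflurane (1.53 ± 0.26). The last pair overlapped and the other neighbours did not.

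The other Slc5a12 probe gave an averaged difference of 0.69 ± 0.12 (adjusted p = 0.0349 over 40216 probes). It differed more between anesthetics, with 1.05 ± 0.18 under CO2-O2 (adjusted p = 0.0671) and 0.33 ± 0.18 under isoflurane (adjusted p = 0.350). Its values under CO2-O2 were 1.88, 2.24 and 1.74 in TBA rats, against 0.77, 0.99 and 0.94 in vehicle rats, so the TBA arrays spread more widely than on the first probe and stayed above the vehicle arrays. Under isoflurane its values were 1.40, 1.80 and 1.31 in TBA rats, against 1.46, 1.07 and 0.98 in vehicle rats, so on that probe the groups overlapped. On the first probe, within slide 1, the single TBA array exceeded the mean of the 3 vehicle arrays by 0.81, close to the difference over all arrays.

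The averaged Slc5a12 call held under all 13 alternatives and with each of 12 arrays left out, with adjusted p from 0.00304 to 0.0391 in the leave-outs. The CO2-O2 call held under 7 of 15 alternatives and in 2 of 12 leave-outs, those of vehicle isoflurane arrays 1 and 2. Leaving out any CO2-O2 array ended it, with adjusted p up to 0.169 while the difference stayed between 0.77 and 0.83. Slide as a fixed term left 0.81, which is the slide 1 value again, since both rest on the same 1 TBA array.

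**Figure D2:**
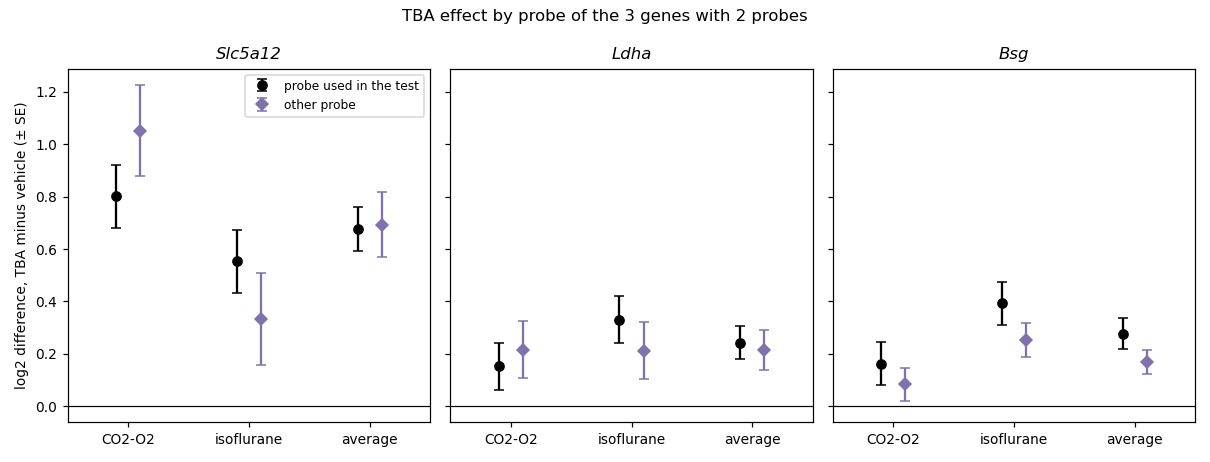
Log2 difference between TBA and vehicle rats (± SE from limma) for the 3 genes with 2 probes, under CO2-O2, under isoflurane and averaged, with circles for the probe used in the test and diamonds for the other. For Slc5a12 the averages coincide at 0.68 and 0.69, and for Bsg the other probe gave 0.17 against 0.28.

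Slc5a8 encodes the high-affinity counterpart, which in mouse kidney lies in the later S3 segment. Its values were 1.62, 1.95 and 0.92 in TBA rats under CO2-O2, against 0.62, 0.52 and 1.47 in vehicle rats. Under isoflurane they were 2.02, 1.25 and 1.89 in TBA rats, against -0.11, 0.48 and -0.76 in vehicle rats. The groups overlapped under CO2-O2, through TBA array 3 and vehicle array 3, and were well apart under isoflurane.

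The Slc5a8 difference averaged 1.24 ± 0.27, the largest point estimate among the 8 genes, with an adjusted p of 0.0521 that missed the threshold. It was 1.85 ± 0.39 under isoflurane (adjusted p = 0.0727) and 0.63 ± 0.39 under CO2-O2 (adjusted p = 0.494). On slide 1 it was 0.05. The averaged adjusted p passed 0.05 under 5 of 13 alternatives and in 1 of 12 leave-outs.

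Tubule markers were measured on the same arrays, and their part in the results was not tested. Of 11 S1-S2 markers other than Slc5a12, 10 lay above 0 in the averaged comparison (median 0.19) and 1 was called, Slc22a8, an organic anion transporter, at 0.38 ± 0.06 (adjusted p = 0.0292). Their summed signal, in multiples of the 75th percentile, was 1110 to 1230 in TBA rats against 990 to 1086 in vehicle rats under CO2-O2, and 1244 to 1338 in TBA rats against 1022 to 1122 in vehicle rats under isoflurane. The 7 S3 markers split 3 above and 4 below 0 in the averaged comparison, which joins opposite leanings. Under CO2-O2, 1 lay above and 6 below 0 (median -0.31). Under isoflurane, 6 lay above and 1 below (median 0.32). Their sum was 411 to 640 in TBA rats against 619 to 698 in vehicle rats under CO2-O2, and 348 to 698 in TBA rats against 410 to 503 in vehicle rats under isoflurane. All 5 measured markers of the thick ascending limb, a later segment, lay below 0 in the averaged comparison (median -0.17), and 1 fell, the claudin Cldn10, at -0.40 ± 0.08 (adjusted p = 0.0417). Their sum was 469 to 527 in TBA rats against 534 to 605 in vehicle rats under CO2-O2, and 387 to 512 in TBA rats against 386 to 573 in vehicle rats under isoflurane. All 5 red blood cell markers lay above 0 in the averaged comparison (median 0.15). Slc4a1, 1 of these 5, was also listed as a marker of intercalated cells, a kidney cell type. Under CO2-O2 the 5 markers summed to 412 to 599 in TBA rats against 475 to 496 in vehicle rats. Under isoflurane the sums were 363 to 517 in TBA rats against 316 to 397 in vehicle rats. The part of red blood cells was not tested.

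Slc16a1 encodes the broadly expressed lactate and pyruvate carrier MCT1. Its values were 3.06, 2.74 and 2.77 in TBA rats under CO2-O2, against 1.91, 2.01 and 2.24 in vehicle rats. Under isoflurane they were 2.48, 2.26 and 1.78 in TBA rats, against 1.51, 0.66 and 0.46 in vehicle rats. TBA arrays lay above vehicle arrays under each anesthetic, but the TBA isoflurane arrays overlapped the vehicle CO2-O2 arrays.

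Averaged over anesthetics the Slc16a1 difference was 1.05 ± 0.19 (adjusted p = 0.0315), a 2.07-fold higher signal with a 95% interval of 0.63 to 1.46 on the log2 scale. The separate differences were 0.80 ± 0.26 under CO2-O2 (adjusted p = 0.229) and 1.29 ± 0.26 under isoflurane (adjusted p = 0.0688). Group means ran from TBA CO2-O2 (2.85 ± 0.17, SD) through TBA isoflurane (2.17 ± 0.36) and vehicle CO2-O2 (2.05 ± 0.17) to vehicle isoflurane (0.88 ± 0.56), and the middle pair overlapped. Within slide 1 the difference was 0.72.

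The averaged Slc16a1 call passed under 11 of 13 alternatives and was lost with no filter on dim probes (adjusted p = 0.0799) and with scan day as a fixed term (adjusted p = 0.123). It was lost in 9 of 12 leave-outs, with adjusted p up to 0.0817 and a difference never under 0.95. The 3 leave-outs that kept it were those of TBA CO2-O2 array 3, TBA isoflurane array 3 and vehicle isoflurane array 1. Without the last the difference was 1.21 (adjusted p = 0.00744).

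Slc5a12 and Slc16a1 were the 2 members whose groups did not overlap in the same direction under both anesthetics, as was so for 4.28% of all features. Counted singly, 3 members did not overlap and were higher under CO2-O2 (Slc5a12, Slc16a1 and Ldhb, with 11.9% of all features) and 5 under isoflurane (Slc5a12, Slc5a8, Slc16a1, Ldha and Bsg, with 14.3%).

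Slc16a3 encodes MCT4, a carrier known for lactate export from glycolytic cells. It was 0.09, -0.42 and -0.37 in TBA rats under CO2-O2, against 0.95, -0.17 and 1.03 in vehicle rats, and 0.27, -0.16 and 0.03 in TBA rats under isoflurane, against -0.26, 0.47 and 1.04 in vehicle rats. The vehicle groups spread widely and overlapped the TBA groups. The averaged difference was -0.61 ± 0.26 (95% interval -1.19 to -0.02, adjusted p = 0.247).

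Slc16a7 encodes MCT2, a high-affinity carrier. It ranged from 1.26 to 1.59 over the TBA rats and from 1.32 to 1.68 over the vehicle rats. Its averaged difference of -0.08 ± 0.06 (adjusted p = 0.509) had a 95% interval of -0.21 to 0.05.

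Bsg encodes basigin, the chaperone of Slc16a1 and Slc16a3. Its values were 6.93, 7.07 and 7.14 in TBA rats under CO2-O2, against 6.83, 6.95 and 6.87 in vehicle rats. Under isoflurane they were 7.34, 7.28 and 7.09 in TBA rats, against 6.86, 6.78 and 6.90 in vehicle rats. The groups overlapped by 1 array under CO2-O2 and were apart under isoflurane.

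The averaged Bsg difference was 0.28 ± 0.06 (adjusted p = 0.0458), or 1.21-fold. It was 0.39 ± 0.08 under isoflurane (adjusted p = 0.0727) and 0.16 ± 0.08 under CO2-O2 (adjusted p = 0.408). The other probe averaged 0.17 ± 0.05 (adjusted p = 0.0925). The averaged call held under 8 of 13 alternatives, and quantile normalization took the difference to 0.16 (adjusted p = 0.138). The call was lost in 11 of 12 leave-outs, all but that of TBA isoflurane array 3, with adjusted p up to 0.112.

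Ldha, whose subunit is known for forming lactate from pyruvate, was 5.75, 6.03 and 5.94 in TBA rats under CO2-O2, against 5.67, 5.83 and 5.76 in vehicle rats. Under isoflurane it was 5.96, 5.94 and 5.89 in TBA rats, against 5.75, 5.50 and 5.54 in vehicle rats. On this probe the treatments overlapped under CO2-O2 and not under isoflurane. The averaged difference of 0.24 ± 0.06 did not pass (adjusted p = 0.0834), nor did that of the other probe, 0.21 ± 0.08 (adjusted p = 0.176). On the other probe the treatments overlapped under both anesthetics. Its differences were 0.22 ± 0.11 under CO2-O2 and 0.21 ± 0.11 under isoflurane, so it showed no such contrast between anesthetics.

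Ldhb was 7.13, 7.16 and 7.28 in TBA rats under CO2-O2, against 6.93, 6.81 and 6.89 in vehicle rats. Under isoflurane it was 7.02, 7.12 and 7.05 in TBA rats, against 7.03, 7.11 and 6.93 in vehicle rats. The pattern was the reverse of that of the tested Ldha probe: apart under CO2-O2 and overlapping under isoflurane. The differences were 0.32 ± 0.07 under CO2-O2 (adjusted p = 0.118), 0.04 ± 0.07 under isoflurane (adjusted p = 0.811; -0.15 with quantile normalization) and 0.18 ± 0.05 averaged (adjusted p = 0.0960). With quantile normalization the averaged difference was 0.063 for Ldhb (adjusted p = 0.564) and 0.15 for Ldha (adjusted p = 0.231).

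**Figure D3:**
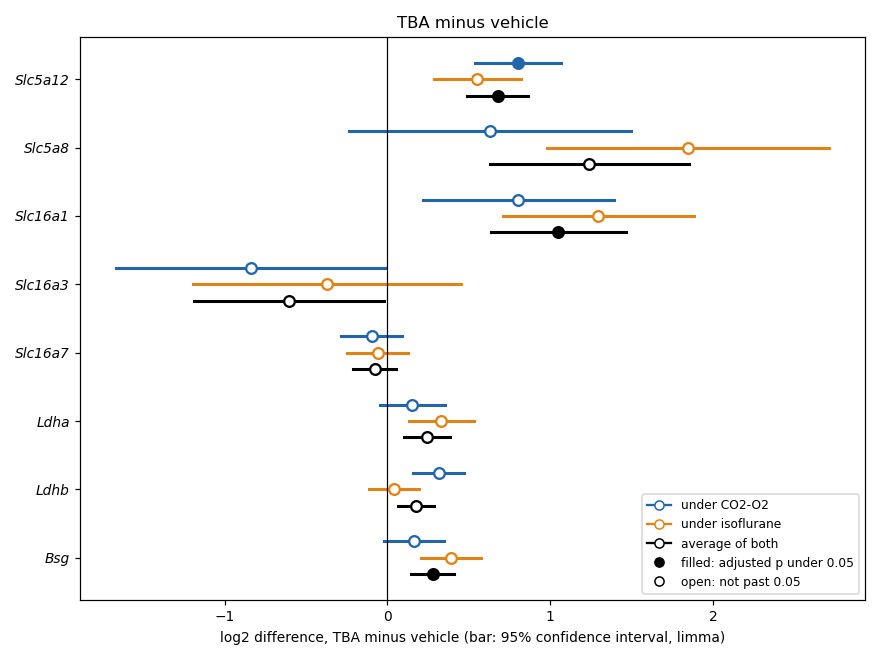
Log2 difference between TBA and vehicle rats for the 8 genes under CO2-O2, under isoflurane and averaged, with 95% confidence intervals from limma and filled points for an adjusted p under 0.05. Filled points are Slc5a12 under CO2-O2 and averaged, Slc16a1 averaged and Bsg averaged, and the widest intervals belong to Slc5a8 and Slc16a3.

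Whether the TBA difference itself depended on the anesthetic was tested as an interaction. By limma 0 of 8 members were called and 0% of all features, and 1 member had an unadjusted p under 0.05, against 12.1% of features. That member was Ldhb, whose TBA difference was smaller under isoflurane than under CO2-O2 by 0.27 on the log2 scale (95% interval -0.49 to -0.05, adjusted p = 0.334). The interval for Slc5a8 ran from -0.01 to 2.44, for Slc16a1 from -0.34 to 1.32 and for Slc5a12 from -0.63 to 0.13.

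The anesthetics were then compared within each treatment. Slc16a1 was the member that differed most, at -0.68 ± 0.26 in TBA rats (adjusted p = 0.388) and -1.17 ± 0.26 in vehicle rats (adjusted p = 0.0888), each as isoflurane minus CO2-O2. Averaged over treatments it was -0.93 ± 0.19 (adjusted p = 0.0656), a signal 0.525 times that under CO2-O2. No member passed in any of these comparisons: by limma 0 of 8 were called in TBA rats against 0.00676% of features, 0 in vehicle rats against 0.105%, and 0 averaged against 0.287%. Members with an unadjusted p under 0.05 numbered 3 in each of these comparisons, against 10.8%, 18.7% and 17.2% of all features.

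Arrays under isoflurane lay wholly below those under CO2-O2 for Slc5a12, Slc16a1 and Ldhb in TBA rats, against 7.22% of features, and for Slc5a8, Slc16a1 and Slc16a7 in vehicle rats, against 14.2%. In TBA rats Slc5a12 differed by -0.36 ± 0.12 (adjusted p = 0.328). In vehicle rats Slc5a8 differed by -0.998 ± 0.39 (adjusted p = 0.218) and Slc16a7 by -0.20 ± 0.08 (adjusted p = 0.250). All 7 S3 markers also lay below 0 in vehicle rats under isoflurane relative to CO2-O2 (median -0.72). Their sum was 410 to 503 under isoflurane against 619 to 698 under CO2-O2. Of 5 red blood cell markers, 4 lay below 0 in vehicle rats (median -0.49). The other, at 0.08, was Slc4a1, which was also listed for intercalated cells. The markers summed to 316 to 397 under isoflurane against 475 to 496 under CO2-O2, all 5 included. The part of these markers was not tested. The vehicle comparison is also one of slide 2 with slide 1, and of scan day 2 with scan day 1. Only the TBA CO2-O2 group had arrays on both slides, with 1 array on slide 1. With slide as a fixed term, which rests on that array, Slc5a8 differed by -1.87 and Slc16a7 by -0.09 in vehicle rats.

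**Figure D4:**
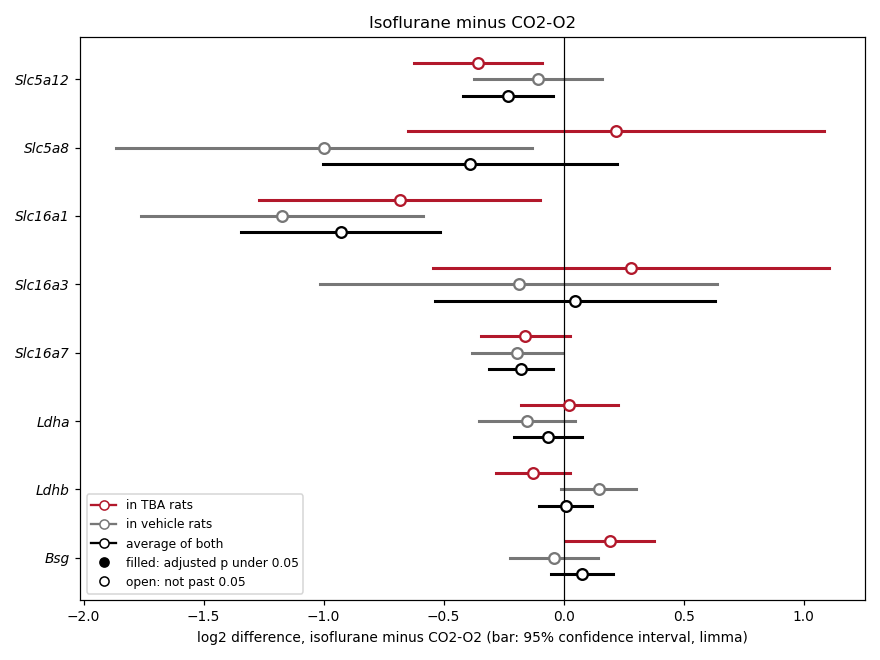
Log2 difference between isoflurane and CO2-O2 for the 8 genes in TBA rats, in vehicle rats and averaged, with 95% confidence intervals from limma. No point is filled, since no adjusted p was under 0.05, and the Slc16a1 intervals all lie below 0.

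Other genes of lactate and pyruvate handling were counted in the averaged comparison, where 1.4% of all features were called higher. No test compared these lists with the 8 genes. Of 18 measured enzymes and carriers of lactate and pyruvate outside the 8, 1 rose and 0 fell. It was Pck1, which makes phosphoenolpyruvate for glucose synthesis, at 0.36 ± 0.06 (adjusted p = 0.0257), and the list's median was 0.02. Pck1 was 7.92, 7.98 and 7.98 in TBA rats under CO2-O2, against 7.35, 7.57 and 7.38 in vehicle rats, and 7.83, 7.88 and 7.999 in TBA rats under isoflurane, against 7.78, 7.76 and 7.60 in vehicle rats. TBA arrays lay above vehicle arrays under both anesthetics.

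Pdk4, the kinase that shuts off pyruvate dehydrogenase, is named here after its values were seen: it had the largest difference of that list, 0.99 ± 0.28, without passing (adjusted p = 0.0998). Of 15 glycolysis genes 1 rose, Gapdh (0.24 ± 0.05, adjusted p = 0.0437), and the median was 0.07. Of 10 other monocarboxylate carriers of the SLC16 family and embigin, 0 were called by limma. Embigin (Emb), a chaperone related to basigin, was at -0.27 ± 0.06 (adjusted p = 0.0552) and Slc16a4 at -0.34 ± 0.09 (adjusted p = 0.0830).

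Of 6 other sodium-coupled SLC5 carriers 0 were called by limma. The smallest p values belonged to the glucose carrier Slc5a1, at 0.47 ± 0.12 (adjusted p = 0.0734), and the inositol carrier Slc5a11, at 0.28 ± 0.08 (adjusted p = 0.114). The medians of these lists lay between -0.01 and 0.10.

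**Figure D5:**
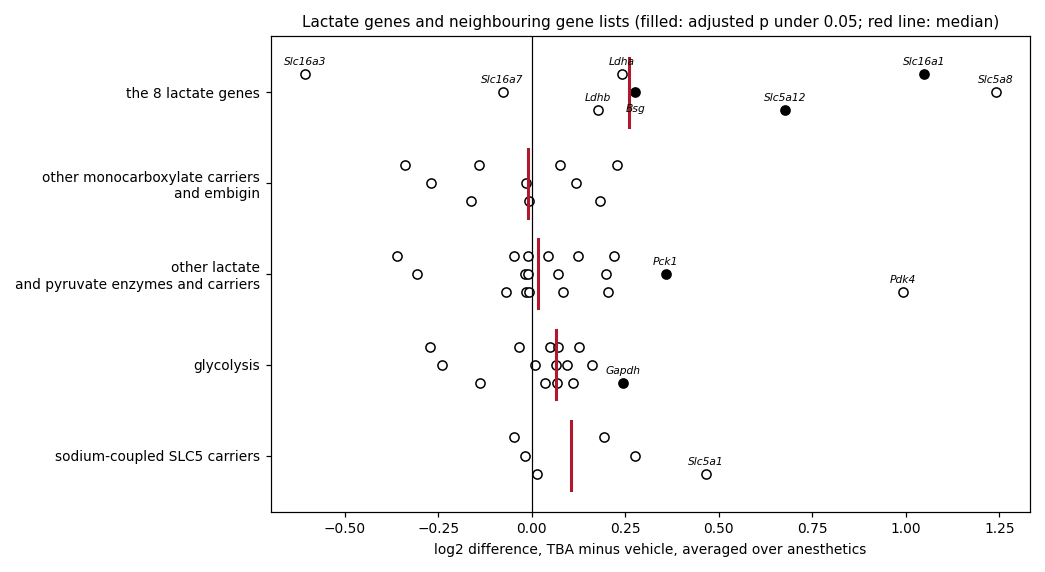
Averaged log2 difference between TBA and vehicle rats for each measured gene of the 8 lactate genes and of 4 neighbouring lists, with filled points for an adjusted p under 0.05 and red lines at the medians. The 8 genes have a median of 0.26 and 3 filled points, the other lists medians from -0.01 to 0.10 and 2 filled points in all, Pck1 and Gapdh.

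The named genes most like each member were found by Pearson's r over the 12 arrays among 11671 features with a symbol, which share group differences as well as slides. They are given as a description. Slc5a12 was closest to Mttp, the microsomal lipid transfer protein (r = 0.942), then Aass and Galk1. Slc16a1 was closest to Plin2, a lipid droplet coat protein (r = 0.959), then Plekha1 and Clock. Slc5a8 was closest to Gpx4 (r = 0.905), then Gcdh and Spint2.

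Ldha was closest to 3 enzymes of fatty acid breakdown, Acot2 (r = 0.949), Eci1 (r = 0.931) and Decr1 (r = 0.928). After removing each group's mean, these 3 correlations were 0.829, 0.763 and 0.812, while that of Slc16a1 with Plin2 was 0.776 and that of Slc5a12 with Mttp was 0.884. Other pairs fell further: Slc5a12 to 0.367 with Aass and 0.456 with Galk1, and Slc16a1 to 0.515 with Plekha1 and 0.732 with Clock. Slc5a8 fell to 0.576 with Gpx4, 0.646 with Gcdh and 0.539 with Spint2. Bsg was closest to Cyba (r = 0.961), Ppial4g and Ciao2b, and Ldhb to Slc4a4 (r = 0.936), Tnfrsf4 and Acot12. Slc16a3 was closest to B4galt4 (r = 0.863), Tmem184b and Fzd4, and Slc16a7 to Sstr3 (r = 0.888), Smcp and Nucb2.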

How the data were processed

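Cy3-labelled cRNA from total RNA was measured on Agilent arrays of 1 colour, per the labels' protocols. The deposited files hold spot intensity from Agilent Feature Extraction 10.7 (per the submitters' processing notes), with background subtraction and detrending inside each array, and without normalization across arrays, per the file headers. The deposited series table holds a linear ratio to each array's 75th percentile, as its values show, with column medians of 0.101 to 0.107. No centring was found, and each column matched the scanner file of another replicate of its group, so replicate numbers are those of the scanner files.

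Probe accessions, with versions dropped, were looked up in RefSeq on GRCr8: 27460 of 61657 probes had 1 symbol, 0 several and 34197 none. Coordinates are those of the GRCr8 promoter table only. Log2 processed signal minus the array's 75th percentile was analysed, without control and outlier-flagged spots. Probes had to stand well above background on every array of some group, which 40216 did, and the probe with the highest mean stood for its gene, leaving 29603 features. limma 3.58.1 in R 4.3.3 fitted 1 mean per group (8 residual and 1.89 prior degrees of freedom), with Benjamini-Hochberg adjustment over all features and a threshold of 0.05. The number of arrays limits the precision. The fit was tested on simulated data with independent noise. These held no slide or scan day effect, so that test cannot speak to either.

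The members and gene lists were chosen with earlier results of these data known. All members and probes are named. Of each list, up to 4 genes past the threshold are named, or else the 2 with the smallest p, and for each member the 3 genes most like it. Alternatives were normexp (offset 50), quantile and median scaling, the series table, other filters, probes averaged or taken singly, slide as random or fixed effect, a replicate block, only the arrays compared, trend with robust spread, array weights and each array left out. Scan day as a fixed term, scan day 2 alone and slide 1 alone were added after seeing the data.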

Additional observations from a re-analysis of the deposited data

How the results depend on the processing

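Of the 8 members, 1 was called for TBA under CO2-O2, and 0 with quantile or median scaling, no filter, the mean of probes, slide as a random block (consensus correlation 0.0671) or fixed term, the replicate block, or scan day as a fixed term. Leaving out 1 array gave 0 to 1. Under isoflurane the count was 0, and 4 with normexp, 1 with median scaling and 4 with trend and robust spread (0 to 1 in leave-outs). The averaged count was 3, and 5 with normexp, 1 with no filter, 6 with trend and robust spread and 1 with scan day (1 to 3 in leave-outs). The replicate block left the averaged Bsg at an adjusted p of 0.0853 and the CO2-O2 Slc5a12 at 0.113. Same-numbered arrays deviated together at r = -0.133 to 0.133, against -0.191 to 0.222 for other pairs, and 5 of 12 were closest to their own number. The values thus showed no pairing by number, which does not show that the rats were unpaired. For the anesthetics 0 became 1, Slc16a1, with normexp or array weights in vehicle rats, and with normexp, trend and robust spread or in leave-outs (0 to 1) averaged. No interaction call appeared under any of 13 alternatives.

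Over the alternatives, the 44 features called for TBA under CO2-O2 ranged from 3 to 153, the 117 under isoflurane from 0 to 1337, the 558 averaged from 63 to 1091 and the 0 of the interaction from 0 to 43. For isoflurane against CO2-O2 the 2 in TBA rats ranged from 0 to 14, the 31 in vehicle rats from 0 to 850 and the 85 averaged from 12 to 285. No called difference changed sign, and the cause of the lost calls was not tested. Small uncalled ones did. Ldhb under isoflurane was -0.15 with quantile normalization (-0.0055 to 0.086 in leave-outs). The interaction of Slc16a7 was -0.037 with scan day (-0.023 to 0.089). For isoflurane minus CO2-O2 in TBA rats, Ldha was -0.025 with quantile normalization (-0.055 to 0.084) and Slc5a8 was -0.070 with scan day and on scan day 2 alone (-0.070 to 0.45). In vehicle rats, Bsg was 0.12 with normexp, 0.026 with quantile normalization and 0.10 with slide or scan day, Slc5a12 was 0.081 with the mean of probes (-0.24 to 0.021) and Slc16a3 ran from -0.58 to 0.15 in leave-outs. Averaged, Ldhb was -0.012 with median scaling (-0.013 to 0.032) and Slc16a3 was -0.091 with scan day (-0.15 to 0.22). Slide as a fixed term cannot give the isoflurane, averaged or interaction values, because slide 3 held 1 group.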
